A study of Mus musculus with 6 samples.

Results

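The TGF-beta receptors and SMADs studied here are 10 genes: the ligand gene Tgfb1, the receptor genes Tgfbr1, Tgfbr2 and Tgfbr3, the signal transducers Smad2, Smad3 and Smad4, and the inhibitors Smad7, Ski and Skil. They were chosen by symbol, each matched 1 row of the 55414 genes in the deposited table, and all 10 were among the 15527 genes that passed the filter on low counts. The mRNA came from liver natural killer (NK) cells, cytotoxic innate lymphocytes, of wild-type mice. The control group, PBS (phosphate-buffered saline), and the group given metformin, a glucose-lowering drug, at 200 mg per kg for 3 days each had 3 libraries labelled day 3. The age and sex of the mice, the gate used to sort the cells and whether each library came from its own animal are not given in the sources used here, so the p-values speak only of the spread among these libraries, and that spread may be technical.

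Transforming growth factor beta is made as a latent cytokine that must be released from its propeptide before it can bind. The active ligand brings together the type II receptor TGFBR2 and the type I receptor TGFBR1, which phosphorylates SMAD2 and SMAD3; these join SMAD4 and enter the nucleus to control transcription. Many cells transcribe Smad7 and Skil in response, and the products of Smad7, Ski and Skil damp the signal. In NK cells the pathway restrains cytotoxicity and interferon gamma, and it can move NK cells toward the state of the type 1 innate lymphoid cell (ILC1), a resident relative.

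The libraries held 22152167 to 30161214 estimated reads, and all 10 NK marker genes checked were detected in every library, with a summed level of 19684 to 22802 CPM (counts per 1e+06 reads, scaled by trimmed mean of M-values, TMM). The library metformin 3 stood apart. The Spearman correlation of gene length with each gene's deviation from its mean was -0.42 in metformin 3, against -0.11 to 0.33 in the other 5 libraries (across genes, which are not independent replicates). In the longest 1 of 5 equal length classes of the genes tested the median deviation of metformin 3 was -0.27 on the log2 scale, and 7 of the 10 genes studied here lie in that class. Its mitochondrial share was 0.720% of reads, against 0.429% to 0.515% in the others, and its summed level of hepatocyte markers was 344 CPM, against 76.2 to 164 CPM. Markers of Kupffer cells and macrophages summed to 116 CPM in metformin 3, against 34.5 to 58.3 CPM, and 6 of the 9 tested were higher with metformin and 1 lower at an unadjusted p under 0.05. Csf1r, the highest of these markers in each PBS library, was lower with metformin, at 14.1 to 20.0 CPM against 27.2 to 33.7 CPM. The sum thus mixes opposite directions and does not show each marker's change in metformin 1 and 2. Depth was lower in every metformin library than in any PBS library. Results that rest on metformin 3 are therefore given with and without it. T cell markers summed to 780 to 919 CPM with PBS and 1303 to 1588 CPM with metformin. Cd3g, Trbc1 and Trbc2 held most of this sum, at 283, 289 and 164 CPM in PBS 1 and 688, 479 and 310 CPM in metformin 3. These 3, Cd3d, Cd3e and Cd8a did not overlap between the groups and were higher with metformin. Of all 15527 genes tested, 1473 were higher with metformin without overlap. Trac, Cd4, Cd5, Cd6 and Cd8b1 overlapped, with Trac at 8.43 to 32.8 CPM with PBS and 21.4 to 74.1 CPM with metformin. A list of 8 liver ILC1 markers summed to 907 to 1024 CPM with PBS and 1435 to 1506 CPM with metformin. All 8 were higher with metformin at an unadjusted p under 0.05 (edgeR), against 5.29% of all genes tested on the higher side. This list, like the others, was chosen with earlier results of these data known. In the T cell and ILC1 lists 0 genes were at 0 in all libraries, and the part of these shifts in the values below was not tested. In bulk RNA, fewer cells of a type and less RNA per cell cannot be told apart.

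Across the whole table edgeR's quasi-likelihood test called 0 of 15527 genes at a Benjamini-Hochberg adjusted p of 0.05 (0%), so none of the 10 genes was called. The same test gave 1610 genes at an unadjusted p under 0.05, which is 10.4% of those tested. At an adjusted p of 0.05 DESeq2 called 299 genes (1.93%), limma-voom called 0, and its version with sample quality weights called 36 (0.232%), with 0 of the 10 genes among them. Of the 10 genes, 9 had a log2 fold change below 0 for metformin against PBS, as did 49.1% of all genes tested. The median over the 10 was -0.20, against 0.01 over all genes tested. In the longest of the 5 length classes, where 7 of the 10 lie, the median over all genes of the class was -0.14. An unadjusted p under 0.05 was reached by 3 of the 10, Tgfbr3, Skil and Smad4, all on the lower side, where 5.08% of all genes tested lay. Levels of 4 genes, these 3 and Smad3, were lower in every metformin library than in every PBS library, against 9.63% of all genes tested. Without metformin 3, 7 of the 10 were below 0 with a median of -0.08, and with the trend with gene length removed from each library 6 were below 0 with a median of -0.11. At an unadjusted p under 0.05 on the lower side were 3 of the 10 in both of these fits, against 6.51% and 5.47% of all genes tested, and 1 without PBS 1 and 1 without PBS 3, with Tgfbr3 the gene that remained.

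**Figure D1:**
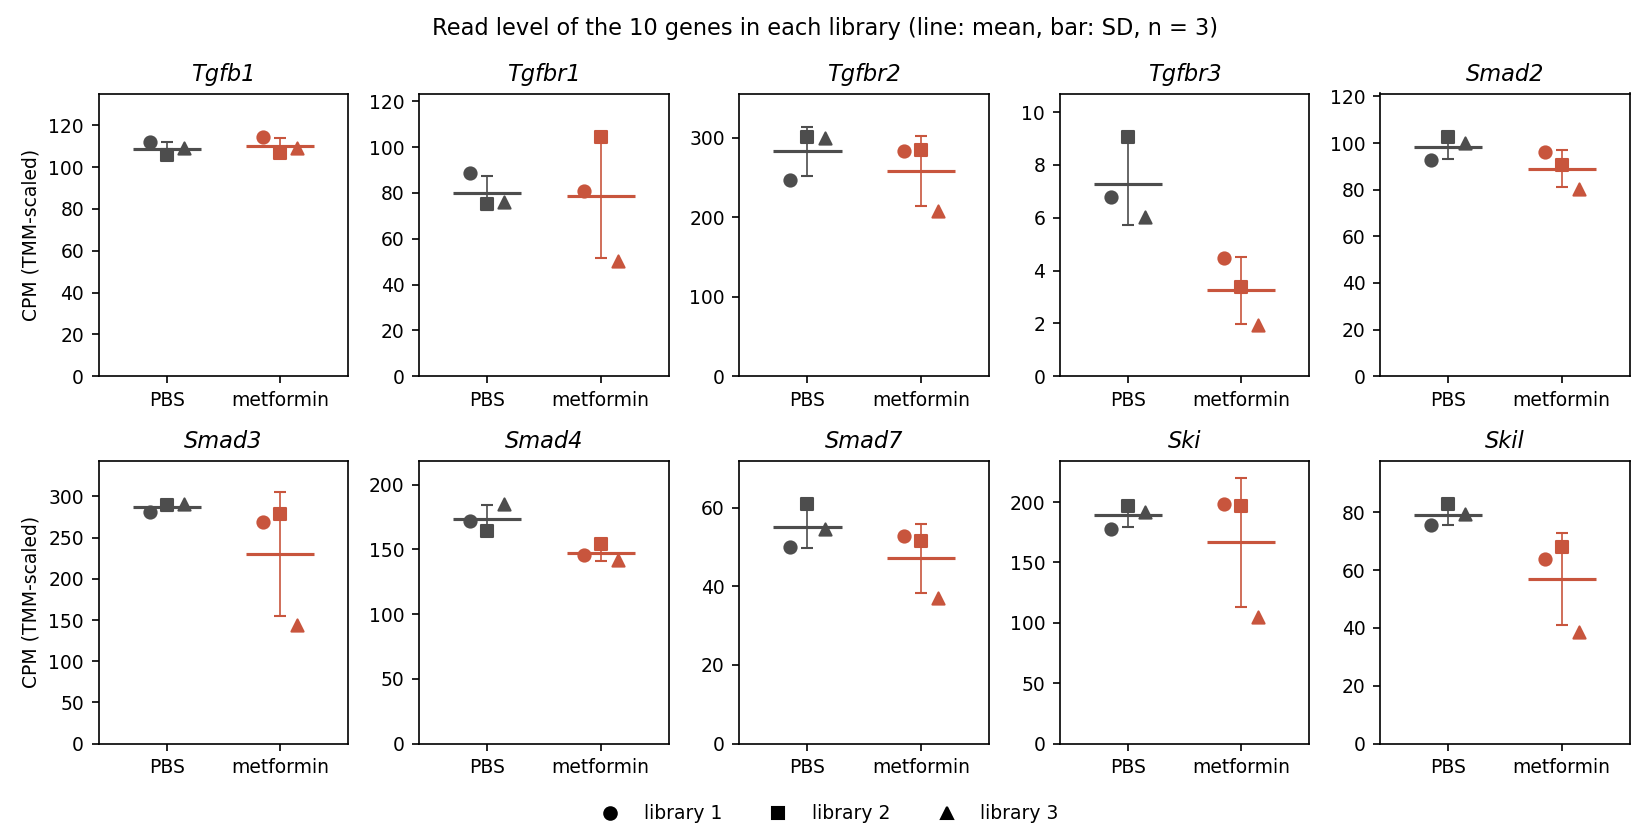
Level of each of the 10 genes in CPM (y axes start at 0 and differ between panels) in PBS (grey) and metformin (red) libraries; points are libraries, lines means and bars SD (n = 3). Tgfb1 lies between 106 and 115 CPM in all 6 libraries, the groups do not overlap for Tgfbr3, Smad3, Smad4 and Skil, and metformin 3 (red triangle) is the lowest library for every gene except Tgfb1.

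Tgfb1 (ENSMUSG00000002603.16, chromosome 7, 25386427 to 25404502, plus strand) encodes the ligand TGF-beta 1. It was read at 112, 106 and 109 CPM in PBS libraries 1, 2 and 3 and at 115, 107 and 109 CPM in metformin libraries 1, 2 and 3. The groups overlapped throughout, and no library stood apart. The PBS mean was 109 ± 3.24 CPM and the metformin mean 110.03 ± 4.09 CPM (SD, n = 3 each), and the log2 fold change was 0.02 (SE 0.09; 95% confidence interval -0.19 to 0.22; edgeR adjusted p = 0.962). Platelets are a rich source of TGF-beta 1, and platelet marker genes summed to 374 to 642 CPM with PBS and 372 to 566 CPM with metformin, so this sum overlapped between the groups as well.

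Tgfbr2 (ENSMUSG00000032440.14, chromosome 9, 115913361 to 116004428, minus strand) encodes the receptor that binds the ligand first. Its levels were 247, 301 and 299 CPM with PBS and 282, 285 and 208 CPM with metformin. Only metformin 3 lay below the PBS libraries. The log2 fold change was -0.13 (SE 0.15; 95% confidence interval -0.47 to 0.21; edgeR adjusted p = 0.766), and it was -0.0013 without metformin 3 and 0.01 with the length trend removed.

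Tgfbr1 (ENSMUSG00000007613.16, chromosome 4, 47353222 to 47414931, plus strand) encodes the kinase that phosphorylates SMAD2 and SMAD3. Its levels were 88.6, 75.1 and 76.1 CPM with PBS and 80.9, 104.6 and 50.3 CPM with metformin. The metformin group therefore held both the highest library, metformin 2, and the lowest, metformin 3. The log2 fold change was -0.02 (SE 0.23; 95% confidence interval -0.56 to 0.52; edgeR adjusted p = 0.979), and without metformin 3 its sign turned, to 0.21 (SE 0.12; edgeR adjusted p = 0.557). With the length trend removed it was 0.08.

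Tgfbr3 (ENSMUSG00000029287.15, chromosome 5, 107254436 to 107437495, minus strand) encodes betaglycan, a co-receptor that has no kinase and presents ligand to the other receptors. It was the scarcest of the 10 genes, with 183 to 221 estimated reads per PBS library and 44 to 102 per metformin library. The levels were 6.77, 9.07 and 6.03 CPM with PBS and 4.47, 3.38 and 1.93 CPM with metformin. Every metformin library lay below every PBS library, with metformin 3 the lowest. Means were 7.29 ± 1.58 CPM and 3.26 ± 1.27 CPM (SD, n = 3 each), a log2 fold change of -1.16 (SE 0.35; 95% confidence interval -1.96 to -0.36), with an unadjusted p of 0.0098 that did not hold over all genes (edgeR adjusted p = 0.359). Without metformin 3 the log2 fold change was -0.90 (SE 0.29; edgeR adjusted p = 0.291), and with the length trend removed -1.04 (SE 0.30; edgeR adjusted p = 0.317). DESeq2 gave the smallest adjusted p over the alternatives, 0.063, and the largest was 0.758. Cells other than lymphocytes also transcribe Tgfbr3: markers of stellate cells and fibroblasts summed to 29.6 to 197 CPM with PBS and 37.5 to 79.6 CPM with metformin, and markers of liver endothelium to 136 to 152 CPM and 118 to 143 CPM. Pecam1 (75.8 to 108 CPM) and Fcgr2b (31.2 to 42.3 CPM) held most of the endothelium sum. Stab2, Clec4g, Kdr, Lyve1, Cdh5 and Oit3 each had at most 2.32 CPM in any library. The part of these cells in the Tgfbr3 level was not tested.

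Smad2 and Smad3 encode the SMADs that the receptor phosphorylates. Smad2 (ENSMUSG00000024563.17) was read at 92.6, 102.7 and 100.02 CPM with PBS and 96.1, 90.4 and 80.5 CPM with metformin, and the log2 fold change was -0.15 (SE 0.10; 95% confidence interval -0.38 to 0.09; edgeR adjusted p = 0.641). Its groups overlapped, and the value was -0.09 without metformin 3 and 0.0050 with the length trend removed. Smad3 (ENSMUSG00000032402.13, chromosome 9, 63554049 to 63665276, minus strand) was read at 281, 289 and 291 CPM with PBS and 269, 279 and 144 CPM with metformin. Metformin 1 and 2 lay just under the PBS libraries, and metformin 3 far below the other 5. The log2 fold change of Smad3 was -0.32 (SE 0.22; 95% confidence interval -0.83 to 0.20; edgeR adjusted p = 0.641), and -0.07 (SE 0.06; edgeR adjusted p = 0.695) without metformin 3, which thus set most of its size.

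Smad4 (ENSMUSG00000024515.14) encodes the SMAD that joins both SMAD2 and SMAD3 and that other ligands of the superfamily use too. Its levels were 172, 164 and 185 CPM with PBS and 145, 154 and 142 CPM with metformin. All 3 metformin libraries lay below all 3 PBS libraries, and metformin 3 was close to metformin 1. Means were 174 ± 10.5 CPM and 147 ± 6.51 CPM (SD, n = 3 each), a log2 fold change of -0.24 (SE 0.09; 95% confidence interval -0.45 to -0.03), with an unadjusted p of 0.032 (edgeR adjusted p = 0.459). The value was -0.22 without metformin 3 and -0.19 with the length trend removed, so it moved little with either. Over the 19 alternatives the log2 fold change of Smad4 was -0.28 to -0.19, with an unadjusted p under 0.05 in 13 of them.

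Smad7 (ENSMUSG00000025880.12) encodes the inhibitory SMAD that brings ubiquitin ligases to the activated receptor. It was read at 49.96, 60.9 and 54.5 CPM with PBS and 52.7, 51.5 and 37.0 CPM with metformin. Metformin 1 and 2 lay within the PBS range and metformin 3 below it. The log2 fold change was -0.23 (SE 0.15; 95% confidence interval -0.58 to 0.13; edgeR adjusted p = 0.631), -0.09 without metformin 3, and -0.44 on the log2(TPM + 1) scale (limma, adjusted p = 0.527), where TPM is a level per gene length.

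Ski and Skil encode related proteins, SKI and SnoN, that bind SMAD complexes and recruit repressors to them. Ski (ENSMUSG00000029050.16, chromosome 4, 155238532 to 155307049, minus strand) was read at 178, 197 and 192 CPM with PBS and 198, 197 and 105 CPM with metformin. Metformin 1 held the highest level and metformin 3 the lowest. Its log2 fold change was -0.18 (SE 0.22; 95% confidence interval -0.69 to 0.33; edgeR adjusted p = 0.787) and turned to 0.06 (SE 0.07) without metformin 3.

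Skil (ENSMUSG00000027660.17, chromosome 3, 31149207 to 31176726, plus strand) differed more steadily. Its levels were 75.6, 82.8 and 79.3 CPM with PBS and 64.0, 67.9 and 38.6 CPM with metformin. No metformin library reached the lowest PBS library. Means were 79.2 ± 3.63 CPM and 56.8 ± 15.9 CPM (SD, n = 3 each), a log2 fold change of -0.48 (SE 0.20; 95% confidence interval -0.93 to -0.03), with an unadjusted p of 0.041 (edgeR adjusted p = 0.467). Without metformin 3 the log2 fold change was smaller and its error smaller too, -0.27 (SE 0.08; edgeR adjusted p = 0.229). With the length trend removed it was -0.35 (SE 0.13; edgeR adjusted p = 0.414). Over the 19 alternatives the log2 fold change of Skil was -0.63 to -0.22, and its unadjusted p was 0.05 or more in 3 of them, those without PBS 1, PBS 2 or PBS 3.

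**Figure D2:**
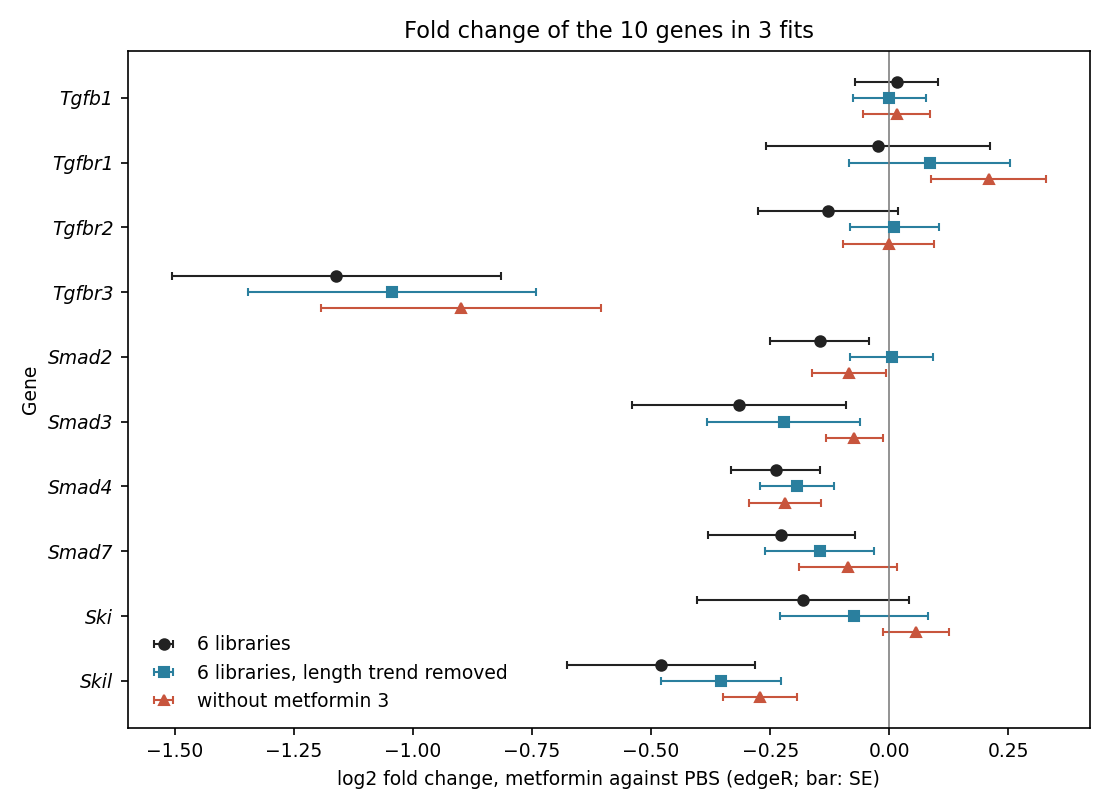
log2 fold change of metformin against PBS for the 10 genes in edgeR fits on 6 libraries (black), on 6 libraries with the length trend removed (blue) and without metformin 3 (red); bars are SE. Tgfbr3, Smad4 and Skil stay below 0 in all 3 fits, Smad3 moves from -0.32 to -0.07 without metformin 3, and Tgfbr1 (in both other fits), Ski (without metformin 3), Tgfbr2 and Smad2 (both with the length trend removed) cross 0.

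The 10 genes differed in how they varied over single libraries. Metformin 3 was the lowest of the 6 libraries for 9 of the 10, all but Tgfb1, against 29.1% of all genes tested. That share is over genes of all lengths, while in the longest length class the median deviation of metformin 3 was -0.27. Relative to the mean of metformin 1 and 2, the level in metformin 3 was 0.525 for Smad3, 0.532 for Ski, 0.542 for Tgfbr1 and 0.585 for Skil. It was 0.492 for Tgfbr3, whose level also differed between the other libraries. Smad7 at 0.710, Tgfbr2 at 0.732 and Smad2 at 0.863 lay between, and Smad4 at 0.946 and Tgfb1 at 0.985 were nearly level. Tgfbr3 had the widest range over libraries, 2.23 on the log2 scale between highest and lowest, and Tgfb1 the narrowest, 0.12.

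**Figure D3:**
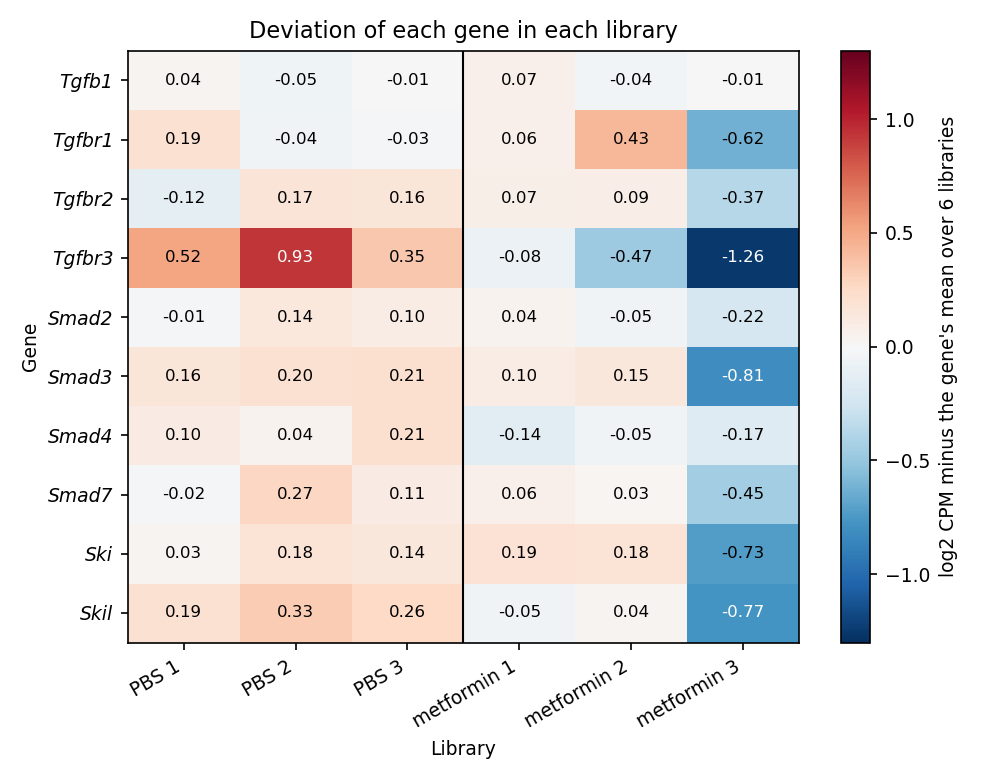
log2 CPM of each gene in each library minus the gene's mean over the 6 libraries (blue lower, red higher; numbers are the plotted values). The metformin 3 column holds the lowest value of every gene except Tgfb1, from -0.17 for Smad4 to -1.26 for Tgfbr3, and the Tgfbr3 row is above 0 in all PBS libraries and below 0 in all metformin libraries.

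Gene length is given beside these values because metformin 3 had a trend with it. Tgfb1 (2573 bases) and Smad4 (3384 bases) are the shortest of the 10 in the deposited table, Smad7 has 4278 bases, and the other 7 have 5090 to 8092 bases. Tgfbr2 and Smad2, the longest by this listed length, were less reduced in metformin 3 than Smad3. The deposited TPM values did not rest on the listed length alone. With PBS, Tgfbr2 (8092 bases) averaged 283 CPM and 83.1 TPM, and Smad2 (8089 bases) 98.5 CPM and 67.5 TPM. The trend below uses the listed length, and the part of length in these levels was not tested. The trend of all genes tested at the length of Smad3 was -0.24 on the log2 scale in metformin 3, and Smad3 deviated by -0.81. Ski deviated by -0.73 where the trend was -0.27, Skil by -0.77 where it was -0.29, and Tgfbr1 by -0.62 where it was -0.28. Smad2 deviated by -0.22 and lay above the trend of -0.28. These values are relative to the mean over all 6 libraries, metformin 3 included.

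**Figure D4:**
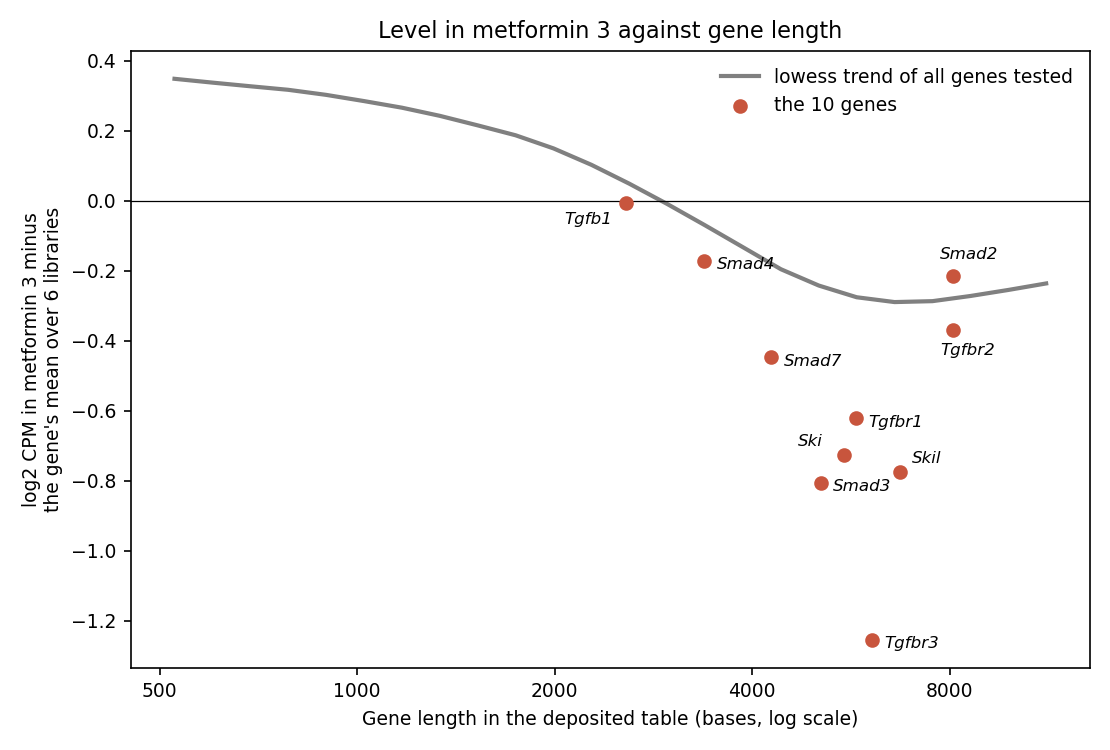
log2 CPM in metformin 3 minus the gene's mean over 6 libraries (y axis) against gene length in bases (x axis, log scale); red points are the 10 genes and the grey line is the lowess trend of all 15527 genes tested. Smad3, Ski, Skil, Tgfbr1 and Tgfbr3 lie well below the trend, and Smad2, Tgfbr2, Smad4 and Tgfb1 within 0.10 of it or just beyond.

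Compared per length, in TPM, Smad4 averaged 89.0, Tgfb1 87.1, Tgfbr2 76.2, Smad3 71.8, Smad2 63.0, Ski 46.8, Tgfbr1 25.4, Smad7 24.7, Skil 22.6 and Tgfbr3 1.39 TPM over the 6 libraries. The first 4 could not be put in order: the ranges of Smad4 and Tgfb1, of Tgfb1 and Tgfbr2, and of Tgfbr2 and Smad3 overlapped in both groups. Smad3 was above Smad2 in 5 of 6 libraries, and Smad2 above Ski and Ski above Tgfbr1 in all 6. Tgfbr1, Smad7 and Skil overlapped with their neighbours in that order, and Skil was above Tgfbr3 in all 6. Among the receptors, Tgfbr2 stood at 2.65, 3.56 and 3.45 times the TPM of Tgfbr1 in the PBS libraries and at 2.94, 2.37 and 3.54 times in the metformin libraries, so this ratio overlapped. Tgfbr1 stood at 10.9 to 16.3 times the TPM of Tgfbr3 with PBS and at 20.4 to 33.6 times with metformin, without overlap. Skil stood at 0.534, 0.538 and 0.516 times the TPM of Ski with PBS, at 0.394 and 0.399 times in metformin 1 and 2, and at 0.541 times in metformin 3, where both genes were low. Smad3 was above Smad2 at 1.13 to 1.27 times its TPM in 5 libraries, and at 0.756 times in metformin 3.

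Sequences upstream of the start sites of Smad3, Ski and Tgfb1 are shown because Smad3 and Ski were both far lower in metformin 3 than in the other libraries while Tgfb1 stayed level. Over the other 5 libraries Smad3 and Ski did not share an order. Tgfbr1 was similarly low in metformin 3, at 0.542 of the mean of metformin 1 and 2, and its windows are not printed. Whether these sequences have a part in the levels was not tested. RefSeq windows were kept for 5 of the 10 genes (Tgfb1, Tgfbr1, Tgfbr2, Smad3 and Ski), called the matched genes below. Part of the genome was left out when windows of the 10 genes were kept, so a gene outside these 5 is not shown to lack a window. The 250 bases before the start are given 5′ to 3′ in the gene's direction, on build GRCm38.p6. The coordinates of this build are not those of the deposited table. Capitals mark the GC box, GGGCGG or its reverse complement CCGCCC, a motif that binds the general activator SP1. Smad3 lies at chr9:63757995-63758244 on the minus strand, Ski at chr4:155222536-155222785 on the minus strand and Tgfb1 at chr7:25686752-25687001 on the plus strand.
Smad3: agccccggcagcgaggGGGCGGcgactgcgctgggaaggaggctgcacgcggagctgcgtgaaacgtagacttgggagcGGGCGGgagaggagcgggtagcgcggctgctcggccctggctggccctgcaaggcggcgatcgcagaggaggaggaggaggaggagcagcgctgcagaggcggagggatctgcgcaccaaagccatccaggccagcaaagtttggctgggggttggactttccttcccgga
Ski: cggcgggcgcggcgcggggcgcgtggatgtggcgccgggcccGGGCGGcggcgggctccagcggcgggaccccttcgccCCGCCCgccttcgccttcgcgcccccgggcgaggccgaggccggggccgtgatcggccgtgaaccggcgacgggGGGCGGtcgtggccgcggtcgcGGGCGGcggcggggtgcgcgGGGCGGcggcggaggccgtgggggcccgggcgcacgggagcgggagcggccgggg
Tgfb1: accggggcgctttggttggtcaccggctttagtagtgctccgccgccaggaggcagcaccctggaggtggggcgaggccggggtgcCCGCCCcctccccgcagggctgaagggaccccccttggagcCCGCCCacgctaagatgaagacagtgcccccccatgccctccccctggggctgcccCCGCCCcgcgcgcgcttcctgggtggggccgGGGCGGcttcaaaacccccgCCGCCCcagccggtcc

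The GC box occurred 2 times in the Smad3 window, 5 times in the Ski window and 5 times in the Tgfb1 window (overlapping matches counted, both strands). At least 1 was in 32.7% of the 32851 RefSeq windows of this length that were counted, called all windows below. Of the 6 windows of the matched genes 4 held a GC box; the window of Tgfbr2 and 1 of the windows of Tgfbr1 held 0. The GC content was 69.2%, 87.6% and 75.2%, and the median of all windows 52.4%. The short SMAD box CAGAC (either strand) was in none of these 3 windows, in 2 of the 6 windows of the matched genes and in 42.2% of all windows. The GC-rich SMAD motif GGCGC (either strand) was in the Ski and Tgfb1 windows, not in that of Smad3, in 3 of the 6 windows and in 32.0% of all windows; it can overlap the GC box in part. The palindrome GTCTAGAC was in 0 of the 6 windows and in 0.167% of all windows.

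The other genes of the pathway were taken from 7 lists with 104 symbols, of which 97 passed the filter. At an adjusted p of 0.05 edgeR called 0 of the 97, and DESeq2, which called 299 genes in all, called Itga1 (adjusted p = 0.014), Hcst (adjusted p = 0.026) and Itgb1 (adjusted p = 0.04997) among the genes named here. An unadjusted p under 0.05 was reached by 7 on the higher side, where 5.29% of all genes tested lay, and by 8 on the lower side, where 5.08% lay. The median log2 fold change of the 97 was -0.09, against 0.01 over all genes tested, and their median length was 4380 bases, against 2997 bases.

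Of the other ligands and the proteins that hold or release them, 15 of 16 passed the filter, 12 had a log2 fold change below 0, and the list median was -0.34. At an unadjusted p under 0.05 were 4 genes on the lower side and 1 on the higher. Nrros, a membrane protein that tethers latent TGF-beta 1 on myeloid cells, was read at 182, 187 and 217 CPM with PBS and 149, 159 and 156 CPM with metformin. These groups did not overlap, and the log2 fold change was -0.34 (SE 0.10; edgeR adjusted p = 0.359; -0.35 without metformin 3). The part of the macrophage markers given above in the Nrros level was not tested. Itgb1, the integrin beta 1 chain, was read at 1218, 1205 and 1189 CPM with PBS and 947, 997 and 733 CPM with metformin (log2 fold change -0.43, SE 0.12; edgeR adjusted p = 0.340; -0.32 without metformin 3). Tgfb3, the gene of the ligand TGF-beta 3, was low, at 7.73 to 12.5 CPM with PBS and 4.77 to 7.38 CPM with metformin (log2 fold change -0.79; edgeR adjusted p = 0.401). Itgb8, a chain of an integrin that activates latent TGF-beta, stood near the limit of detection, at 1.14 to 3.92 CPM with PBS and 0.394 to 0.834 CPM with metformin (log2 fold change -1.75, SE 0.59; edgeR adjusted p = 0.414). Without PBS 3 its log2 fold change was -1.0 (edgeR unadjusted p = 0.12). Mmp9, a gelatinase that can cleave latent complexes, was the gene on the higher side, with 104 to 154 CPM with PBS and 137 to 226 CPM with metformin (log2 fold change 0.50; edgeR adjusted p = 0.472). Its groups overlapped, and without metformin 1 its log2 fold change was 0.28 (edgeR unadjusted p = 0.19).

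The other receptors of the superfamily were scarce: the highest per length were Acvr2a, an activin receptor, at 3.70 TPM and Eng, the co-receptor endoglin, at 2.74 TPM. Of 9 genes tested 1 had an unadjusted p under 0.05, Acvr1b, an activin type I receptor that also signals through SMAD2 and SMAD3. It was read at 2.504, 2.26 and 2.11 CPM with PBS and 3.37, 4.38 and 5.30 CPM with metformin, without overlap (log2 fold change 0.92, SE 0.29; edgeR adjusted p = 0.376; 0.75 without metformin 3).

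Among 13 other SMADs and SMAD partners tested, both TGIF genes, which encode repressors that bind SMAD complexes, were at an unadjusted p under 0.05 on the lower side. Tgif1 was read at 20.5, 23.4 and 28.8 CPM with PBS and 19.3, 16.02 and 15.1 CPM with metformin (log2 fold change -0.53, SE 0.17; edgeR adjusted p = 0.391). Tgif2 lay between 4.85 and 5.65 CPM with PBS and between 2.35 and 4.15 CPM with metformin (log2 fold change -0.73, SE 0.29; edgeR adjusted p = 0.461). Neither overlapped between the groups, and without metformin 3 the log2 fold changes were -0.46 and -0.57. The most abundant per length in this list were Ncor1, a corepressor, at 227 TPM and Hdac1, a histone deacetylase, at 173 TPM.

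Of 22 ubiquitin ligases, phosphatases and other regulators, all tested, 1 had an unadjusted p under 0.05, Ldlrad4, a membrane protein that limits SMAD phosphorylation. It was read at 9.28 to 11.5 CPM with PBS and 6.40 to 8.09 CPM with metformin (log2 fold change -0.49, SE 0.20; edgeR adjusted p = 0.463; -0.51 without metformin 3). Stub1 and Fkbp1a, a ubiquitin ligase and a protein that keeps TGFBR1 inactive, were the most abundant, at 205 and 201 TPM. In the arm that does not use SMADs 0 of 11 genes tested had an unadjusted p under 0.05 (list median -0.10), and Rhoa, a small GTPase, at 379 TPM and Rock1, its kinase partner, at 115 TPM were the most abundant.

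**Figure D5:**
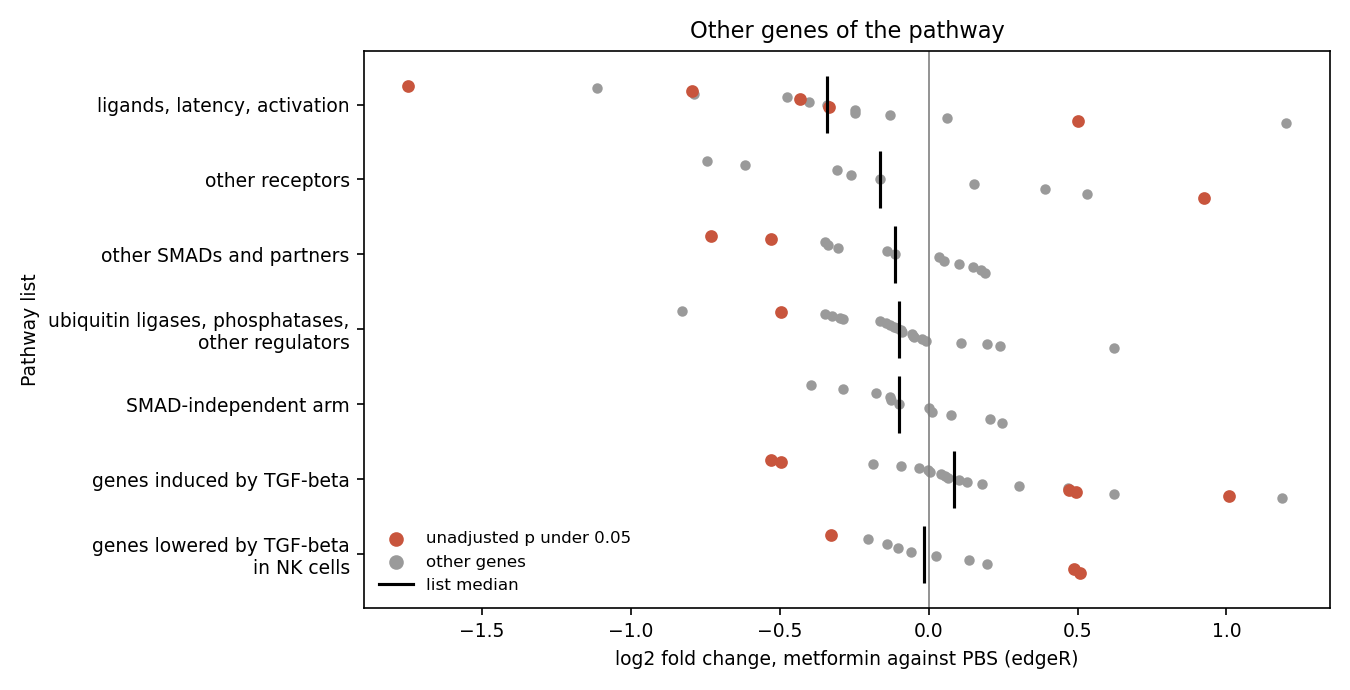
log2 fold change of metformin against PBS (edgeR) for the other pathway genes by list; each point is a gene, red where its unadjusted p is under 0.05, and black bars are list medians. The list of ligands, latency and activation has the lowest median, -0.34, and the genes that TGF-beta is known to induce lie on both sides of 0 with a median of 0.08.

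Genes that TGF-beta is known to induce had log2 fold changes on both sides of 0. Of 20 tested, 3 had an unadjusted p under 0.05 on the higher side and 2 on the lower, and the list median was 0.08. The lists leave out the 10 genes, so Skil and Smad7, also transcribed in response by many cells, are not in these values. Their log2 fold changes were -0.48 and -0.23. Itga1, the integrin CD49a of liver ILC1, was read at 152, 167 and 184 CPM with PBS and 239, 259 and 211 CPM with metformin (log2 fold change 0.50, SE 0.12; edgeR adjusted p = 0.272; 0.56 without metformin 3). Cdkn2b, a cyclin-dependent kinase inhibitor, lay between 1.55 and 2.51 CPM with PBS and between 3.50 and 4.20 CPM with metformin (log2 fold change 1.01, SE 0.31; edgeR adjusted p = 0.370). Rgs1, a regulator of chemokine receptor signalling found in resident lymphocytes, was read at 331 to 358 CPM with PBS and 389 to 601 CPM with metformin, with metformin 3 the highest (log2 fold change 0.47; edgeR adjusted p = 0.402; 0.27 without metformin 3). Tgif1 and Ldlrad4, given above, are the 2 on the lower side. Junb, an AP-1 subunit and with Rgs1 the most abundant of this list, at 574 and 585 TPM, had a log2 fold change of 0.04. Itga1 is also 1 of the 8 ILC1 markers, and T cells can express Itga1 and Rgs1. The ILC1 and T cell marker sums were higher with metformin as given above, though Trac, Cd4, Cd5, Cd6 and Cd8b1 overlapped between the groups. The part of these cells was not tested. Eomes is a transcription factor that separates NK cells from ILC1 and is 1 of the 10 NK markers checked. It was read at 311, 342 and 329 CPM with PBS and 216, 212 and 208 CPM with metformin. Of these 10 markers, 1 was lower and 0 were higher with metformin at an unadjusted p under 0.05. Klrb1c and Nkg7 were higher, and Prf1 and Tbx21 lower, in every metformin library than in every PBS library. The sum of the 10 overlapped between the groups.

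Genes that TGF-beta is known to lower in NK cells were also split. Of 10 tested, 2 had an unadjusted p under 0.05 on the higher side, Gzmb, granzyme B, and Hcst, the adaptor DAP10, and 1 on the lower side, S1pr5, a receptor that lets NK cells leave tissue. Gzmb was read at 2076 to 2788 CPM with PBS and 2809 to 3667 CPM with metformin (log2 fold change 0.49; edgeR adjusted p = 0.353). Hcst, with 442 bases the shortest gene named here, was read at 82.6 to 85.5 CPM and 103 to 141 CPM (log2 fold change 0.51; edgeR adjusted p = 0.296), and its log2 fold change was 0.05 with the length trend removed. S1pr5 was read at 428 to 457 CPM and 302 to 391 CPM (log2 fold change -0.33; edgeR adjusted p = 0.429). Gzmb and Klrk1, the receptor NKG2D, were the most abundant of this list, at 3309 and 1727 TPM, and Klrk1 had a log2 fold change of -0.06 (SE 0.09).

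The genes most like Tgfbr3 and Smad4 over the libraries were sought among 10448 other genes of at least 5 CPM, by the root mean square difference of log2 CPM centred on each gene's mean over the 6 libraries. Nearest to Tgfbr3, which had both the smallest p and the widest range of the 10, were Aff3, at a distance of 0.18, with 22.6, 26.02 and 22.7 CPM with PBS and 16.3, 14.6 and 7.58 CPM with metformin, and Scd2, at 0.21. For Tgfbr3 0 genes lay within 0.15. Nearest to Smad4, which had the highest mean TPM of the 10, were Khdc4 and Ddx3x, both at a distance of 0.03. Smad4 varied little over the libraries, so a small distance to it says little about a shared pattern.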

How the data were processed

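Libraries were made from total RNA with SMART-seq mRNA chemistry, per the labels' protocols. DRAGEN (version not given) and both GRCm39 and mm10 (roles not given) appear in the submitters' processing notes. Strand use and the handling of shared reads are not known here. The authors deposited 1 table with estimated counts (not normalized, not always whole) and TPM values per gene and library; of its genes 52081 are in GENCODE M21 (GRCm38), 2.87% at the same position, so positions are given as deposited. Estimated counts were rounded and tested with edgeR 4.0.16 (TMM, filterByExpr, glmQLFit, glmQLFTest, no covariate) in R 4.3.3, over all 15527 genes that passed. The SE is the size of the log2 fold change divided by the square root of F. Alternatives used limma 3.58.1 (voom; log2(TPM + 1)), DESeq2 1.42.0, other normalizations and filters, a lowess trend on log gene length (span 0.3) removed as an offset, a replicate block and each library left out. The test was also run on simulated counts, and the outcome is not given here. Within groups, chi-square divided by its degrees of freedom was 14.8 to 63.9, so no library repeats another. Columns of values left without a sample numbered 0. PCR reads have no molecular identifiers, and standard errors cover the spread between libraries only. Genes named beside the 10 are, per list, those at an unadjusted p under 0.05 (at most 6) and the 2 highest in TPM, and the 2 most alike genes of up to 3 members. Cell type markers named singly, Eomes among them, were chosen outside this rule. The 10 genes and the lists were chosen with earlier results of these data known.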

Additional observations from a re-analysis of the deposited data

How the results depend on the processing

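The log2 fold changes of Tgfbr3, Smad3, Smad4, Smad7 and Skil were below 0 under all 19 alternatives, 0 of the 10 genes passed an adjusted p of 0.05 under any of them, and the number of the 10 at an unadjusted p under 0.05 was 3 in the reported fit, 2 or 3 under the alternatives that keep all libraries and 1 to 3 with 1 library left out. Genes called over the whole table numbered 0 in the reported fit, 299 with DESeq2, 36 with limma-voom with sample quality weights, 1 without a filter, 1 with the length trend removed, 3 with a replicate block, 0 to 1 with 1 library left out (1 without metformin 3) and 17 with the length trend removed and without metformin 3 together, a setting chosen after seeing the data. Deviations of same-numbered libraries of the groups correlated at 0.17, 0.08 and 0.17, and the labels do not say whether such libraries are paired. Of the libraries, 3 of 3 metformin and 2 of 3 PBS correlated best with their own number, a hint from the data and not the design. The replicate block left 2 of the 10 genes at an unadjusted p under 0.05.

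Directions turned as follows, and the cause was not tested. Tgfb1 was -0.00038 without a filter, -0.076 on log2(TPM + 1) and, with 1 library left out, -0.021 to 0.036. Tgfbr1 was 0.13 with quality weights, 0.0085 with upper quartile factors, 0.085 with the length trend removed, -0.29 to 0.21 with 1 library left out, and 0.25 with both the trend and metformin 3 removed. Tgfbr2 was 0.010 with the length trend removed and 0.053 with metformin 3 left out as well. Ski was -0.075 and 0.099 in the same pair of fits, and -0.33 to 0.057 with 1 library left out. Smad2 was 0.0050 with the length trend removed. With the length trend removed Rock1 was 0.038, Rhoa 0.14 and Junb -0.051. Rhoa was 0.052, 0.017, 0.015 and 0.018 with upper quartile factors, library size only, the stricter filter and protein-coding genes only, and -0.11 to 0.058 with 1 library left out. Junb was -0.12 and Ncor1 -0.025 on log2(TPM + 1), and Ncor1 -0.033 with quality weights. With 1 library left out Junb was -0.079 to 0.18, Ncor1 -0.060 to 0.10 and Eng -0.52 to 0.23 (-0.26 in the reported fit). With both the trend and metformin 3 removed Junb was -0.038, Hcst -0.036 (0.51 in the reported fit), Ncor1 -0.0094 and Fkbp1a -0.0069. Among the 10 genes depth limits Tgfbr3 most, at 44 to 221 estimated reads per library.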
